A study of Zea mays with 12 samples.

Results

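The class III peroxidases of maize were taken as the genes that the deposited annotation assigns to the KEGG orthology entry K00430, and 101 of the 33589 genes in the table carry it. Germinating embryos of the inbred lines 55 (Zao8-3, low temperature resistant) and 102 (Ji853, low temperature sensitive) were compared. Seeds of every group imbibed for 6 h at 25 °C, and the seeds were then held for 2 h on germination paper at 25 °C (CT) or at 10 °C (LT). The groups CT_55, LT_55, CT_102 and LT_102 had 3 biological replicates each, so each line stands for resistance or sensitivity as a single inbred genotype. Poly(A) RNA was sequenced in 12 libraries with 44028579 to 67873652 counts per library. Values are given as CPM, the count of a gene divided by the total count of its library and scaled to 1e6.

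Class III peroxidases are secreted, heme-containing enzymes of plants, encoded by large families with many tandem duplicates. They use hydrogen peroxide to oxidize phenolic compounds, among them the monolignols that polymerize into lignin, and so stiffen the cell wall, and they can also produce reactive oxygen species that loosen it. In germinating seeds, peroxidase activity is known for roles in wall loosening during radicle elongation and in hydrogen peroxide turnover. Which substrate each maize gene product uses is mostly not known, and the numbers in descriptions such as peroxidase 52 follow sequence likeness to Arabidopsis genes.

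The label was checked against the other annotation columns. Of the 101 members, 49 were described as a peroxidase, 47 as uncharacterized, unknown or hypothetical and 5 as another protein. The gene ontology term for peroxidase activity was attached to 89 members, that for the plant-type cell wall to 56 and that for lignin biosynthesis to 19. The 12 members without the peroxidase term included some abundant genes. LOC109942258 and LOC100193376 carried terms of the mitochondrial respiratory chain complex III, and LOC100277604 carried terms of proteasome assembly. LOC103644041 was described as N-acetyl-D-glucosamine kinase and LOC109944608 as a retrovirus-related Pol polyprotein, and LOC100277092 carried terms of photoreactive DNA repair. These genes stay in the counts because the rule includes them, and counts for the members with the peroxidase term are given beside them.

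The family was unevenly counted. In this embryo tissue 13 members had a mean of at least 10 CPM over the 12 libraries and 43 had a mean under 0.1 CPM. Between 55 and 68 of the 101 members had at least 1 count in a given library. The filter (FPKM, a value scaled to length by the authors, of at least 0.5 in at least 3 libraries) left 42 members for testing, 36 of them with the peroxidase term. None of the remaining 59 exceeded 1.92 CPM in any library. The filter was met by the libraries of line 55 alone for 5 of the 42, by those of line 102 alone for 13, and within each line separately for 24. A member that entered through a single line was more likely to differ between the lines, so the counts of calls below carry no weight on their own.

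The libraries showed the transcripts of embryo tissue. All 8 embryo markers (oleosins, globulins and viviparous-1) were counted, and their summed level was 30718 to 36454 CPM in CT_55, 32337 to 36352 in LT_55, 48649 to 50586 in CT_102 and 38490 to 42902 in LT_102. The 33 endosperm markers (zeins, starch synthesis genes and their regulators) each had at least 1 count somewhere, and summed to 27.4 to 39.8 CPM in CT_55, 26.5 to 35.6 in LT_55, 8.03 to 8.55 in CT_102 and 11.4 to 15.4 in LT_102. Both sums thus differed between the lines, and in line 102 also between the temperatures, and their part in the results below was not tested. In whole embryos, fewer cells of a type and less RNA per cell cannot be told apart.

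The summed level of the 101 members was higher in line 55 at both temperatures. It was 2095, 2079 and 1934 CPM in the CT_55 libraries and 1991, 2037 and 1903.7 in LT_55. In line 102 it was 677, 619 and 543 CPM in CT_102 and 451, 449 and 438 in LT_102. No library of line 102 came near those of line 55, and the LT_102 libraries all lay below the CT_102 libraries, whereas CT_55 and LT_55 overlapped. Among the members with the peroxidase term the sums ran from 1713 to 1907 CPM in line 55, from 354 to 473 in CT_102 and from 257 to 271 in LT_102. Without the most abundant member, LOC100194341, the sums of all members were 517 to 629 CPM in CT_55 and 460 to 602 in CT_102, which overlapped. At 10 °C they were 489 to 539 CPM in LT_55 and 368 to 380 in LT_102, which did not.

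**Figure D1:**
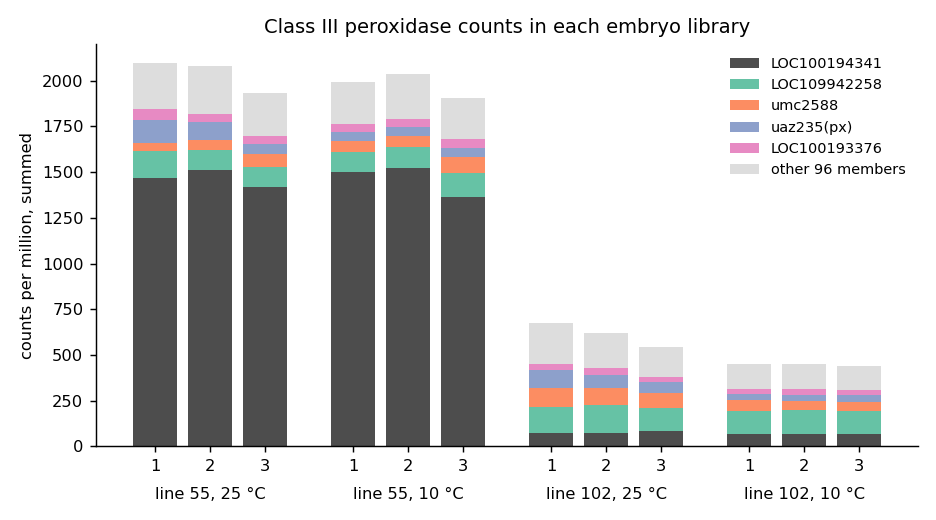
Stacked bars give the CPM of the class III peroxidases in each of the 12 embryo libraries, with the 5 members of highest mean level in color and the other 96 in light gray. LOC100194341 takes most of the bar in line 55 (1365 to 1523 CPM) and little of it in line 102 (68.9 to 82.7 CPM).

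LOC100194341, on chromosome 3 (B73 RefGen_v4, 147549890 to 147551385, minus strand), made up most of the difference between the sums. It is described as an uncharacterized precursor protein and carries the terms for peroxidase activity and the plant-type cell wall. Its level was 1466, 1511 and 1418 CPM in CT_55 and 1502, 1523 and 1365 in LT_55, against 74.8, 76.1 and 82.7 in CT_102 and 70.3, 68.9 and 70.9 in LT_102. The gene made up 70.0 to 75.5% of the family's counts in line 55 and 11.1 to 16.2% in line 102. Among the members with the peroxidase term its share was 78.4 to 82.5% in line 55 and 15.8 to 27.4% in line 102. Line 102 was 19.4-fold lower at 25 °C (log2 fold change −4.28 ± 0.08 SE, edgeR quasi-likelihood test, adjusted p = 1.1e-11) and 21.5-fold lower at 10 °C (−4.43 ± 0.09, adjusted p = 8.8e-12, edgeR). The libraries of the 2 lines were far apart, and within each line the temperatures lay close together. Scaled to the length of the gene in the genome, introns included, its mean was 979 CPM per kb in CT_55, followed by uaz235(px) at 59.5 and LOC100281950 at 59.3. In CT_102 the order on the same scale was LOC109942258 at 58.2, LOC100194341 at 52.1 and uaz235(px) at 49.8 CPM per kb. The CT_102 libraries of neighbors in this order overlapped.

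Between the lines, 26 of the 42 tested members were called at each temperature, at a fold change of 1.5 or more in either direction with an adjusted p under 0.05 (edgeR, Benjamini-Hochberg over the 22985 tested genes). At 25 °C line 102 was higher for 16 and lower for 10. At 10 °C it was again higher for 16 and lower for 10. Over all tested genes 46.6% were called at 25 °C (23.4% higher, 23.2% lower) and 49.8% at 10 °C (24.4% higher, 25.5% lower). With the peroxidase term, 14 members were higher and 9 lower at each temperature. Among the 24 members that met the filter within each line, 7 were higher and 5 lower at 25 °C, and 6 higher and 5 lower at 10 °C. Over all genes meeting it in both lines, 19.4% were higher and 20.5% lower at 25 °C, and 20.7% and 23.0% at 10 °C. The median log2 fold change of the tested members was 0.46 at 25 °C and 0.26 at 10 °C, beside 0.01 and 0.003 over all tested genes. The members' share called was 61.9% at each temperature, with 38.1% higher and 23.8% lower. It was thus above the background on the higher side and near it on the lower side. As 13 tested members entered through line 102 alone, these shares carry no weight on their own.

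The calls at both temperatures rest on separate libraries. Of the 42 members, 9 were lower in line 102 at both temperatures and 14 were higher at both, beside 21.0% and 20.4% of all tested genes. Another 6 were called at a single temperature and 13 at neither, and none was called in opposite directions.

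**Figure D2:**
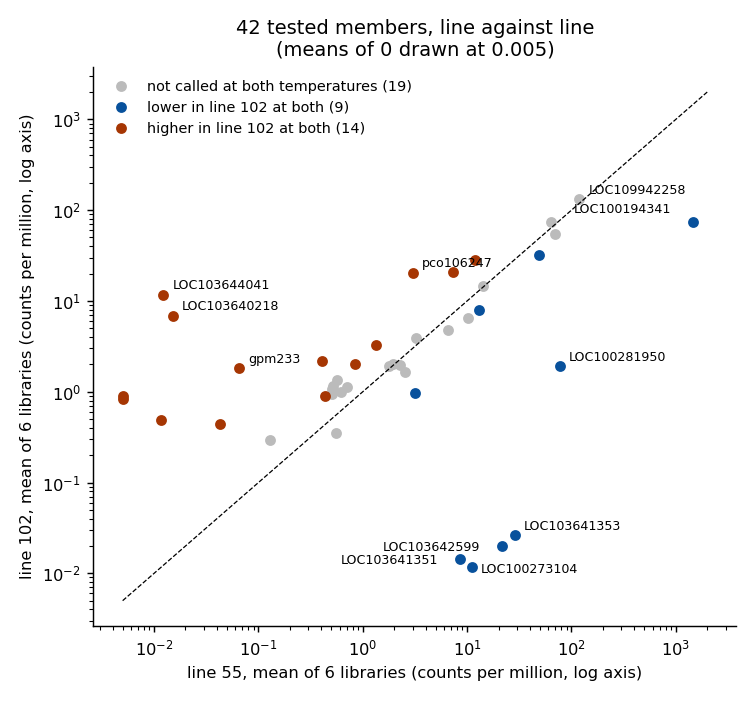
Each point is a tested member, with its mean CPM over the 6 libraries of line 55 on the horizontal log axis and of line 102 on the vertical log axis, and the dashed line marks equal levels. Means of 0 are drawn at 0.005. The 9 members lower in line 102 at both temperatures are blue, the 14 higher are brown, and a group of 4 chromosome 10 members sits at the bottom right.

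In a stretch of chromosome 10, most peroxidase genes were counted in line 55 and were at or near 0 counts in line 102. The whole chromosome holds 13 members, 6 of them tested. Outside the stretch, LOC100273055 was at a mean of 3.43 CPM in CT_55 and 3.85 in CT_102, and was called at neither temperature. The 6 members between 85907858 and 86313681 (B73 RefGen_v4) are the only genes the table lists in this stretch of 405824 bp, which was chosen after the values were seen. LOC103641351, LOC103642599 and LOC103641353 are described as peroxidase 5, in LOC103642599 with the tag of a low quality protein. LOC100281950 is described as a peroxidase 1 precursor and LOC100273104 as an uncharacterized precursor, and LOC103642600 had at most 2 counts in any library.

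LOC103641353 was the most counted of the peroxidase 5 genes here, with 1339, 2020 and 1373 counts under CT and 1326, 1870 and 1828 under LT in line 55. In line 102 it had 3, 0 and 2 counts in CT_102 and 0, 2 and 2 in LT_102. LOC103642599 reached 975, 1462 and 1074 counts under CT and 1138, 1215 and 1536 under LT in line 55, against 0, 0 and 2 in CT_102 and 4, 0 and 0 in LT_102. The pattern was the same in both genes, with at least 975 counts in every line 55 library and at most 4 in every line 102 library. For LOC100273104, line 55 had 452, 767 and 534 counts under CT and 571, 830 and 692 under LT, while line 102 had 4 counts in LT_102 replicate 2 and 0 in its other libraries. LOC103641351 had 320, 755 and 373 counts under CT and 422, 606 and 474 under LT in line 55, and 0 to 2 in the line 102 libraries. All 4 were called lower in line 102 at both temperatures (largest adjusted p 1.9e-07, edgeR). No fold is given for them, because the counts of line 102 are at or near the floor of 3 counts.

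LOC100281950, at the far end of the stretch (86312416 to 86313681, plus strand), was lower in line 102 but still counted there. Its level was 72.0, 71.9 and 81.5 CPM in CT_55 and 80.8, 80.9 and 78.03 in LT_55, and 1.98, 1.38 and 2.04 in CT_102 and 1.93, 2.93 and 1.27 in LT_102. Line 102 was 42.9-fold lower at 25 °C (log2 −5.42 ± 0.25 SE, adjusted p = 4.8e-09, edgeR) and 40.2-fold lower at 10 °C (−5.33 ± 0.24, adjusted p = 4.8e-09). Temperature left no called difference for it in either line.

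Most genes beyond this stretch were counted in both lines. Within 500 kb on each side the table lists 14 further genes, 10 of them tested, and at 10 °C 2 were called lower in line 102, 2 higher and 6 not called. The closest genes with over 10 CPM are cl24073_1 on the side of LOC103641351, at a mean of 45.4 CPM in line 55 and 49.0 in line 102, and LOC100279822 on the other side, at 198 and 151 CPM. The nearest gene on the side of LOC103641351 is LOC100278997, which is not a member and was not tested. It was at 0.637 CPM in line 55 and 0.0116 in line 102. The 2 called lower were LOC103641354 (4.47 CPM in line 55, 3.33 in line 102) and LOC109943084 (3.84 CPM in line 55, 0 in line 102). A further member, TIDP2670, lies among the genes within 500 kb and was not tested. It had 0 to 8 counts in the line 55 libraries and 8 to 29 in those of line 102, opposite to the stretch.

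**Figure D3:**
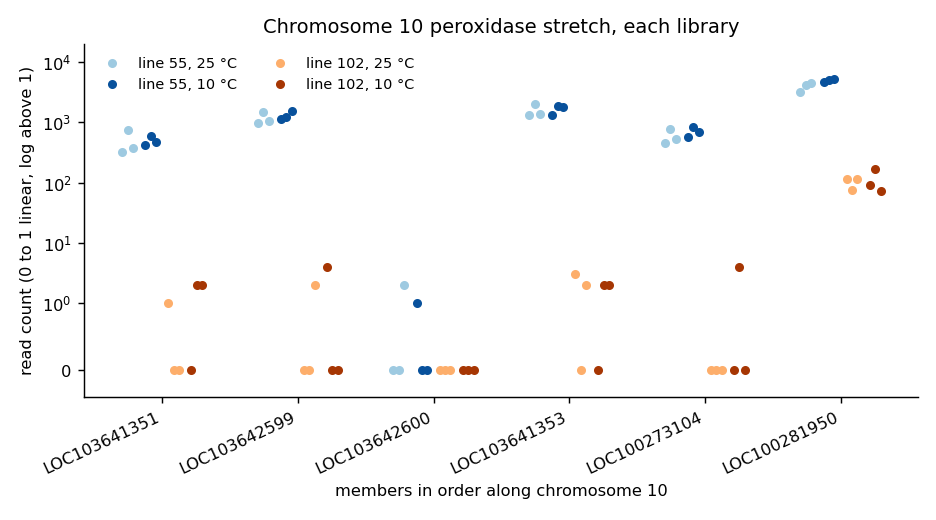
Read counts of the 6 chromosome 10 members are shown per library in their order along the chromosome, on an axis that is linear from 0 to 1 and logarithmic above, with colors for line and temperature. Apart from LOC103642600, which is near 0 throughout, every member has at least 320 counts in each line 55 library, and 4 of them have 0 to 4 counts in the line 102 libraries.

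The reverse pattern, counts in line 102 and almost none in line 55, was scattered over chromosomes. LOC103640218, described as peroxidase 57 (chromosome 9, 117063498 to 117065004), showed 450, 386 and 340 counts under CT and 339, 382 and 361 under LT in line 102. In line 55 it had 4 counts in CT_55 replicate 1 and 0 in the other libraries. ap1, described as peroxidase 12 (chromosome 2, 26123981 to 26125478), showed 36, 39 and 54 counts under CT and 53, 52 and 40 under LT in line 102, and 0 in all line 55 libraries. LOC100382200, an uncharacterized member on chromosome 7, likewise had 34 to 62 counts in the line 102 libraries and 0 in those of line 55. LOC103644041, the member described as a sugar kinase, had 554 to 706 counts in line 102 and 4 counts in CT_55 replicate 3 as its highest count in line 55. These genes were called higher in line 102 at both temperatures (largest adjusted p 6.9e-05, edgeR). At most 3 counts in every library of a line was found for 2 members in line 55 and 2 in line 102, beside 2.38% and 2.15% of all tested genes.

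A second set of members was counted in both lines and higher in line 102. LOC100382459, an uncharacterized precursor with the hydrogen peroxide catabolism term (chromosome 1, 284692621 to 284695286), was at 12.2, 10.6 and 12.5 CPM in CT_55 and 31.3, 26.7 and 28.7 in CT_102. At 10 °C it was at 11.0, 11.5 and 14.3 CPM in LT_55 and 26.5, 25.4 and 31.6 in LT_102. The lines did not overlap at either temperature, with line 102 2.38-fold higher at 25 °C (log2 1.25 ± 0.14 SE, adjusted p = 6.7e-06, edgeR) and 2.20-fold higher at 10 °C (1.13 ± 0.14, adjusted p = 1.4e-05). LOC100192482, of the same annotation, was 2.93-fold higher in line 102 at 25 °C (log2 1.55 ± 0.32 SE, adjusted p = 0.0012, edgeR) and 2.30-fold at 10 °C (1.20 ± 0.33, adjusted p = 0.0064).

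LOC100283382, described as peroxidase 39, was at 0.432, 0.313 and 0.811 CPM in CT_55 and 3.60, 2.95 and 2.96 in CT_102, which is 5.89-fold higher in line 102 (log2 2.56 ± 0.51 SE, adjusted p = 0.00091, edgeR). At 10 °C it was 4.09-fold higher (2.03 ± 0.52, adjusted p = 0.0045). As in the reverse pattern above, gpm233 and umc2389 were almost uncounted in line 55. gpm233 had 0 to 7 counts in the line 55 libraries and 82 to 132 in those of line 102. umc2389 had 4 counts in LT_55 replicate 1 as its only counts in line 55, and 11 to 47 in the line 102 libraries. pco123006 was at a mean of 0.961 CPM in CT_55 and 2.28 in CT_102, and of 0.726 in LT_55 and 1.81 in LT_102. It carries the lignin biosynthesis term, and was the sole member with that term called higher in line 102 at both temperatures, among 6 tested. No member with that term was lower at both.

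LOC100191905 and TIDP3705, which were counted in both lines, were lower in line 102. LOC100191905, an uncharacterized member on chromosome 1, was at 15.4, 13.4 and 12.3 CPM in CT_55 and 10.8, 10.0 and 7.12 in CT_102 (log2 −0.61 ± 0.20 SE, adjusted p = 0.018, edgeR). At 10 °C the levels were 12.3, 12.1 and 12.7 CPM in LT_55 and 7.53, 7.32 and 4.43 in LT_102 (log2 −0.99 ± 0.20, adjusted p = 0.00089, edgeR). TIDP3705, described as peroxidase 12, lies within 100 kb of LOC100194341 on chromosome 3. It was at 2.77, 3.38 and 1.38 CPM in CT_55 and 1.93, 0.929 and 1.02 in CT_102, which overlap (log2 −1.01 ± 0.37, adjusted p = 0.032, edgeR). At 10 °C it was at 2.83, 4.13 and 4.33 CPM in LT_55 and 0.530, 0.732 and 0.611 in LT_102, without overlap, and line 102 was 6.19-fold lower (log2 −2.63 ± 0.39, adjusted p = 8.3e-05, edgeR). LOC100193376, with its complex III terms, was 1.55-fold lower in line 102 under CT and 1.58-fold lower under LT (adjusted p = 0.0011 and 0.00084, edgeR).

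Abundant members without a call between the lines were LOC109942258, uaz235(px) and LOC100277604. uaz235(px), an uncharacterized precursor with the lignin biosynthesis term (chromosome 9, 70231089 to 70232618), was at 122, 96.5 and 54.8 CPM in CT_55 and 97.0, 71.9 and 59.4 in CT_102 (log2 −0.31 ± 0.23 SE, adjusted p = 0.26, edgeR). At 10 °C it was at 45.6, 51.0 and 45.7 CPM in LT_55 and 33.3, 34.0 and 36.1 in LT_102, which do not overlap (log2 −0.50 ± 0.23, adjusted p = 0.075). LOC109942258 was at a mean of 120.9 ± 22.1 CPM (SD, n = 3) in CT_55, 117.6 ± 11.5 in LT_55, 138.8 ± 9.28 in CT_102 and 125.9 ± 6.35 in LT_102. LOC100277604 differed between the lines by 0.004 ± 0.13 at 25 °C and 0.03 ± 0.13 at 10 °C on the log2 scale. The less abundant cl6947_1 (log2 −0.62 ± 0.30 at 10 °C, adjusted p = 0.092, edgeR) and umc1244 (−0.55 ± 0.48, adjusted p = 0.34) were not called either. umc2588, a member with peroxidase and heme binding terms, was higher in line 102 at 25 °C only, as described with the temperature comparison.

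**Figure D4:**
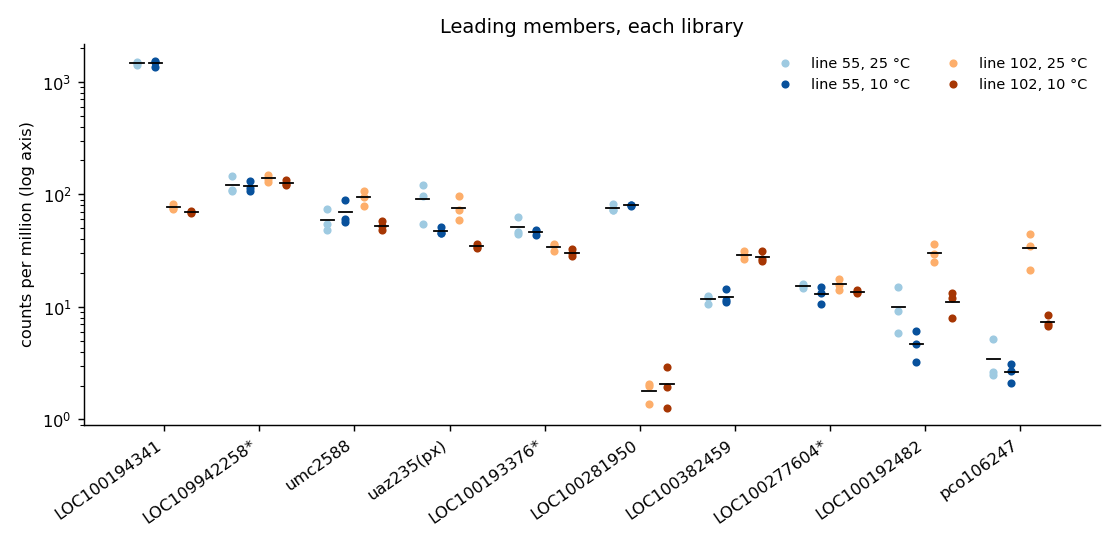
Points show the CPM of each library on a log axis for 10 abundant members, with colors for line and temperature and a black bar at the mean of 3 libraries. An asterisk marks a member without the peroxidase activity term. LOC100194341 and LOC100281950 stand apart between the lines, while pco106247 and LOC100192482 are lower in the LT_102 than in the CT_102 libraries.

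Members whose starts lie within 100 kb of the next formed 13 groups with 31 members, and 4 of these groups held more than 1 tested member. In all 4, the tested members were called in the same direction at both temperatures. LOC103641351 and LOC103642599, LOC103641353 and LOC100273104, and LOC100194341 and TIDP3705 were lower in line 102, and ap1 and LOC100279351 were higher. The pairs with LOC103641351 and with LOC103641353 both lie in the chromosome 10 stretch chosen after the values were seen. How often neighboring genes of the whole table share a direction is not given here. Levels within a group still differed widely, and in the other 9 groups at most 1 member passed the filter. The largest group held 5 genes on chromosome 2 (26123981 to 26201793). There ap1 was counted in line 102 alone, LOC100279351 in both lines, and LOC100194034, LOC100193733 and LOC109939355 had means of at most 0.068 CPM. LOC100279351 was at 1.02, 1.85 and 1.42 CPM in CT_55 and 3.16, 4.90 and 1.79 in CT_102, and at 10 °C at 1.29, 1.69 and 0.810 in LT_55 and 3.12, 3.51 and 3.07 in LT_102 (log2 1.31 ± 0.37 SE, adjusted p = 0.0078, edgeR). On chromosome 9, uaz235(px) had a mean of 62.3 CPM, and its neighbors LOC100381507 and LOC100280862 had 0.248 and 0.011. On chromosome 1, LOC100382459 had a mean of 20.2 CPM and its neighbor LOC103644044 had 0.012. No tested member overlaps another gene of the table, although reads shared between near-identical copies could have been split among them.

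Low temperature for 2 h changed few members. In line 55, no member was called at 10 °C against 25 °C, beside 0.0522% of all tested genes (12 genes). At an unadjusted p under 0.05 with the same fold, 2 members were higher and 6 lower, beside 0.705% and 1.92% of all tested genes. In line 102, 1 member was called, with lower counts at 10 °C, beside 0.618% of all tested genes. At an unadjusted p, 9 members were lower and none higher in line 102, beside 4.49% and 0.787% of all tested genes. DESeq2 called 1 member higher and 2 lower in line 55 and 4 lower in line 102. The count of 1 in line 102 was 4 without CT_55 replicate 3 or without LT_55 replicate 3, 3 without CT_55 replicate 1, 2 without CT_102 replicate 3, and 0 without CT_102 replicate 1, CT_102 replicate 2, LT_102 replicate 2 or LT_102 replicate 3. In line 55 it was 1, with lower counts, without CT_55 replicate 3. The median log2 fold change of the members was −0.19 in line 55 and −0.17 in line 102, beside 0.003 and 0.01 over all tested genes.

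pco106247, an uncharacterized precursor on chromosome 3 (41314147 to 41316176, minus strand) and the called member, fell in line 102. Its level was 44.7, 34.5 and 21.2 CPM in CT_102 and 8.44, 7.10 and 6.70 in LT_102, so every cold library was below every control library. It was 4.51-fold lower (log2 −2.17 ± 0.30 SE, adjusted p = 0.015, edgeR). The call was lost without CT_102 replicate 1 (adjusted p = 0.061), without CT_102 replicate 2 (0.063), without LT_102 replicate 2 (0.067) or without LT_102 replicate 3 (0.085), with log2 fold changes of −1.93 to −2.15. In line 55 the same gene was at 2.48, 2.65 and 5.21 CPM in CT_55 and 3.11, 2.11 and 2.68 in LT_55, which overlap (log2 −0.40 ± 0.31, adjusted p = 1). Line 102 was 9.33-fold higher than line 55 at 25 °C (log2 3.22 ± 0.32, adjusted p = 2.6e-06, edgeR) and 2.73-fold higher at 10 °C (1.45 ± 0.30, adjusted p = 0.0012). The difference between the lines in the response was −1.77 on the log2 scale, with an unadjusted p of 0.0012 and an adjusted p of 0.36 (edgeR).

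uaz235(px), LOC100192482 and umc2588 had lower values at 10 °C without a call. The libraries of uaz235(px) are given above, and it was 2.21-fold lower in LT_102 than in CT_102 (log2 −1.14 ± 0.23 SE, adjusted p = 0.051, edgeR) and 1.93-fold lower in LT_55 than in CT_55 (−0.95 ± 0.23, adjusted p = 0.34). All 3 cold libraries were below all 3 control libraries in each line, and the difference in response between the lines was −0.19 (unadjusted p = 0.57, edgeR). With DESeq2 the adjusted p in line 102 was 0.00014. LOC100192482 was at 36.5, 29.5 and 25.1 CPM in CT_102 and 13.3, 12.1 and 7.97 in LT_102 (log2 −1.46 ± 0.32, adjusted p = 0.063, edgeR), and at 15.1, 9.16 and 5.804 in CT_55 and 4.70, 6.16 and 3.21 in LT_55 (−1.11 ± 0.33, adjusted p = 0.59). Line 102 did not overlap between the temperatures, and line 55 did.

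umc2588 was at 108, 95.5 and 78.8 CPM in CT_102 and 58.2, 47.9 and 52.5 in LT_102 (log2 −0.83 ± 0.19 SE, adjusted p = 0.072, edgeR). In line 55 it was at 48.0, 54.7 and 74.8 CPM in CT_55 and 60.9, 57.3 and 89.4 in LT_55 (0.22 ± 0.19, adjusted p = 1). The temperatures were thus apart in line 102 and mixed in line 55, and the difference in response was −1.05 with an unadjusted p of 0.0020 and an adjusted p of 0.42 (edgeR). Line 102 was higher than line 55 at 25 °C (log2 0.62 ± 0.19, adjusted p = 0.014), with no overlap, and at 10 °C the value was −0.44 ± 0.19 (adjusted p = 0.062).

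In line 55 the lowest unadjusted p-values belonged to members with few reads. LOC100273283 was at 0 in every CT_55 library and had 12, 28 and 8 counts in LT_55 (unadjusted p = 0.00033, adjusted p = 0.18, edgeR), and 8 to 27 counts in the line 102 libraries. LOC107457598 had 0 counts in CT_55 and 6, 6 and 4 in LT_55 (unadjusted p = 0.0013, adjusted p = 0.32), with 11 to 42 in line 102. Both were at 0 in all CT_55 libraries and counted in all others. LOC107457598 also had the lowest unadjusted p of the members for the difference in response between the lines (0.00096, adjusted p = 0.36, edgeR), ahead of pco106247. With counts divided by 4, that unadjusted p was 0.0083 for LOC107457598 and 0.0012 for pco106247 (edgeR). Neither LOC100273283 nor LOC107457598 reached 0.5 CPM in at least 3 libraries. LOC103632211, described as peroxidase 2, was at 11.2, 11.1 and 10.5 CPM in CT_55 and 4.74, 7.18 and 4.82 in CT_102 (log2 −1.02 ± 0.17 SE, adjusted p = 0.00020, edgeR). At 10 °C it was at 10.2, 9.44 and 8.21 CPM in LT_55 and 7.27, 6.99 and 7.71 in LT_102 (−0.38 ± 0.17, adjusted p = 0.060).

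**Figure D5:**
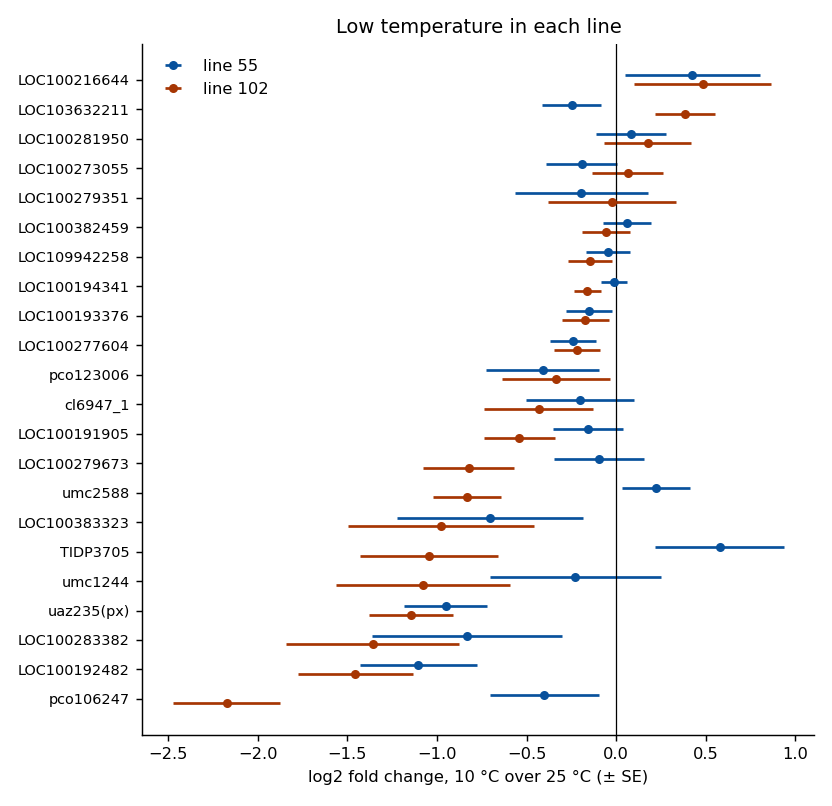
Log2 fold changes of 10 °C over 25 °C with their SE are drawn for the 22 tested members with a mean of at least 1 CPM and at least 0.1 CPM in each line, with line 55 in blue and line 102 in brown, ordered by the value in line 102. pco106247 at −2.17 in line 102 is the only call, and the values of LOC100194341 lie near 0 in both lines (−0.01 in line 55 and −0.16 in line 102).

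No member passed the test for the line by temperature interaction, and 1 of all 22985 tested genes did (0.00435%). At an unadjusted p under 0.05 with the fold, 2 members were positive and 5 negative, beside 1.62% and 2.74% of all tested genes, and DESeq2 called 2 members as negative. TIDP3705 is among the negative values, at −1.62 (unadjusted p = 0.0094, adjusted p = 0.61, edgeR).

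The members described as peroxidase 52, 64 or 72, whose Arabidopsis namesakes act in lignin formation, had low counts in these embryos. They were chosen by description after the values were seen, and uaz235(px), which carries the lignin biosynthesis term without such a description, was far higher at a mean of 62.3 CPM. LOC100501595, described as peroxidase 52, was the only tested gene among those described as peroxidase 52, 64 or 72, at 0.405 to 0.888 CPM in CT_55 and 1.15 to 1.39 in CT_102 (log2 1.05 ± 0.46 SE, adjusted p = 0.068, edgeR). LOC100273061 (peroxidase 64) and LOC103635254 (peroxidase 72) had means of 0.117 and 0.110 CPM. pox1, described only as a peroxidase, had 0 to 11 counts in line 55 and 16 to 43 in line 102 and did not reach the filter.

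Genes under the KEGG entries for enzymes that supply the substrates of peroxidases were called lower in line 102 more often than higher. Of 72 tested genes under the entries for monolignol synthesis, the route from phenylalanine to the alcohols that peroxidases polymerize, at 10 °C line 102 was higher for 12 and lower for 31, beside 24.4% and 25.5% of all tested genes. At 25 °C it was higher for 12 and lower for 29. The median log2 fold change of the list was −0.38 at both temperatures. Some genes of the list met the filter through a single line. LOC100216863 and LOC103655639 had no counts in line 102, and LOC109943347 had none in line 55. Such genes were more likely to differ between the lines, and the list was not split by this. Its counts of calls therefore carry no weight on their own. Examples are LOC109942262, described as hydroxycinnamoyltransferase 4 (155 CPM in LT_55 and 7.92 in LT_102), and LOC100272801, annotated as cinnamate 4-hydroxylase (348 and 104 CPM). In the other direction, IDP2411, described as hydroxycinnamoyltransferase11, was at 70.3 CPM in LT_55 and 122 in LT_102. The entries also hold genes described as other proteins, among them LOC109942397 (REVEILLE 6, called higher), glossy2 (ECERIFERUM 26-like, called lower), LOC103641758 (DNA topoisomerase 1 beta, not called) and several dihydroflavonol-4-reductases and putrescine or agmatine acyltransferases. The table held no gene under the laccase entry searched.

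Genes under the entries for enzymes that make or remove hydrogen peroxide were compared in the same way, with 23.4% of all tested genes higher and 23.2% lower at 25 °C and 24.4% and 25.5% at 10 °C. These counts were not split by the line that met the filter either, and carry no weight on their own. Of 11 tested respiratory burst oxidases, which produce superoxide outside the cell, 1 was higher and none lower in line 102 at 25 °C, and none was higher and 2 were lower at 10 °C. Of 17 genes under the entries for superoxide dismutases, which turn superoxide into hydrogen peroxide, 3 were higher and 6 lower at each temperature. Of those lower, IDP712 and LOC103641949 are described as copper chaperones for the enzyme, and LOC111590882, among those higher, as a RING zinc finger protein. The dismutase gene sod4 was at 1134 CPM in LT_55 and 311 in LT_102. At each temperature 3 of 12 ascorbate peroxidases were higher and 5 lower, and 3 of 5 glutathione peroxidases were lower and none higher. Among the 4 genes under the catalase entry, cat2 was lower in LT_102 than in LT_55 (69.4 and 181 CPM) and LOC100280011, described as catalase isozyme 3, was higher (98.6 and 46.0 CPM), and neither cat1 (1052 and 1162 CPM) nor LOC103643119, described as a traB domain protein, was called. The peroxiredoxin PER1, a seed 1-Cys peroxiredoxin, was at 1545 CPM in LT_55 and 2761 in LT_102 and was called higher at 10 °C, while at 25 °C the log2 fold change was 0.56, under the fold threshold. Over these lists, 122 genes were tested, and none was called for low temperature against control in either line (edgeR), though DESeq2 called 3 lower in line 102, as did edgeR without CT_102 replicate 3. At an unadjusted p with the fold, 8 were lower in line 102, all under the entries for monolignol synthesis, and none in line 55, beside 4.49% and 1.92% of all tested genes.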

How the data were processed

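Embryo poly(A) libraries of both lines were compared by temperature. The authors mapped paired reads to B73 RefGen_v4, and HISAT, StringTie and edgeR are named in the submitters' processing notes, with versions not given in the sources used here. Both lines were counted on this reference, so a count also depends on how well an allele matches it, and this was not tested. The deposited table holds read counts per gene and FPKM values calculated by the authors. It also holds annotation, and has no other per-sample columns. The length implied by count and FPKM was unrelated to the gene span (Spearman 0.01 over 10981 single-transcript genes), and longer than the span in 21.1%. FPKM was therefore used only for the filter, for the choice of named members and for alternatives, and levels are CPM. Low counts cluster at multiples of 4, so a few counts may be less than that many fragments.

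Counts were tested with edgeR 4.0.16 (TMM, quasi-likelihood, 4 groups in a single model, no replicate block, Benjamini-Hochberg over 22985 genes that reached an FPKM of 0.5 in 3 or more libraries), in R 4.3.3. A call needs a fold change of 1.5 or more in either direction with an adjusted p under 0.05. SE is the log2 fold change divided by the square root of F. The test was also run on simulated data with far fewer changed genes than were called between these lines. That run says little about its errors here. Alternatives were median ratio scaling, DESeq2 1.42.0, limma 3.58.1 on log2(FPKM + 0.1) and log2(FPKM + 1), no filter, an FPKM of at least 1, a log2 fold threshold of 1 or none, unadjusted p-values, a fit of only the groups compared, the replicate number as a block, and each library left out in turn. A CPM filter, counts divided by 4 and restriction to members with the peroxidase term were chosen after seeing the data. Tables and plots used Python 3.11.15, pandas 2.3.3 and matplotlib 3.10.9.

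Members and lists were chosen with earlier results of these data known. Named members are the 10 with the highest mean FPKM, those with the largest called line differences without overlap (mean FPKM of at least 1; 5 each way at 10 °C, 3 at 25 °C), called or lowest-p members for temperature and interaction, members at 3 counts or fewer in a line, members with a gene symbol, and the tandem groups with most tested genes. Every other member named, such as LOC100382459, LOC100277604 or LOC100283382, and the chromosome 10 neighbors and list genes, were chosen after their values were seen. Chromosomes were named through gene symbols shared with a RefSeq list of assembly Zm-B73-REFERENCE-NAM-5.0, which holds 79 of the 101 members. Library totals differed by at most 1.54-fold. Replicates come from separate samples by the submitters' account. Sequences were not used here.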

Additional observations from a re-analysis of the deposited data

How the results depend on the processing

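The counts of members called between the lines stayed within 1.5 times of those reported under the alternatives run, except that an FPKM minimum of 1 left 10 higher members at 10 °C, by testing fewer genes. Without each library in turn they ran from 14 to 17 higher and 7 to 10 lower at 25 °C, and from 13 to 18 higher and 9 to 11 lower at 10 °C. For the other lists, a log2 fold threshold of 1 left 13 genes higher in line 102 at 10 °C in place of 20. The temperature counts were less stable, and the cause was not tested. In line 102 the 1 member called lower became 4 with DESeq2, 2 with limma on log2(FPKM + 1), with no filter and with an FPKM minimum of 1, 5 with only the 2 groups compared, 3 with counts divided by 4 and 9 at unadjusted p, and 0 to 4 without a library. In line 55, DESeq2 called 1 higher and 2 lower, limma on log2(FPKM + 0.1) called 1 higher, unadjusted p called 2 higher and 6 lower, and leaving out a library gave 0 to 1 lower. For the interaction, DESeq2 called 2 negative members, and unadjusted p 2 positive and 5 negative. In the other lists, 3 genes were lower in line 102 at 10 °C with DESeq2 and with only the 2 groups compared, 8 at unadjusted p and 0 to 3 without a library, and unadjusted p gave 1 positive and 4 negative for the interaction. Log2 fold changes of the named members kept their side of the threshold in 730 of 760 repeats, no called value changed sign, 26 passed it newly and 4 lost it, all 4 of the latter for pco106247 in line 102. With the replicate number as a block, line 102 had 3 members lower at 10 °C, and counts between the lines moved by at most 2. Deviations of same-numbered libraries correlated at −0.064 to 0.485, and no comparison had every pair above 0.1. Between CT_55 and LT_55 the values were 0.010, 0.366 and 0.485 for replicates 1, 2 and 3. Whether same-numbered libraries share an origin was not tested. Depth limits members with few counts, since 59 of 101 did not reach the filter and a count of 0 allows up to 3 fragments. As low counts cluster at multiples of 4, that many fragments may be more than 3 counts.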
